A study of Mus musculus with 6 samples.

Results

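Peaks of the transcription factor NRF2 were examined at 9 genes whose enzymes detoxify quinones, carbonyls, aldehydes and epoxides, namely Nqo1, Aox1, Ephx1, Cbr1, Cbr3, Ugdh, Ptgr1, Esd and Aldh3a1, out of 21896 protein-coding genes. Every peak that the authors' annotation assigned to one of these symbols was taken, at any distance from the transcription start site (TSS), which gave 20 of the 16057 peaks in all lists together. The cells were mouse embryonic fibroblasts of strain 129S6/SvEvTac, either wild type (WT) or GCN2-/- (here GCN2 KO), that is, lacking the protein kinase GCN2, which responds to a shortage of amino acids and is the product of Eif2ak4. Cells of both genotypes spent 24 h in DMEM that was complete or had no leucine, and NRF2-bound DNA was sequenced (ChIP-seq) from 1 library per condition. The labels do not say whether the fibroblasts were primary cells or a line, nor how many embryos they came from.

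NRF2 pairs with a small Maf protein on antioxidant response elements and is held at a low level by KEAP1 until oxidants or electrophiles release it. Its classical targets include enzymes that reduce, oxidise, hydrolyse or conjugate reactive compounds before these can damage proteins and DNA. Nqo1, which encodes the reductase that converts quinones to hydroquinones, is among the most used readouts of NRF2 activity.

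Of the 9 genes, 6 had at least 1 peak in some list, as did 31.1% of protein-coding genes, and Cbr1, Ptgr1 and Aldh3a1 had none in any. At any distance 1.61% of protein-coding genes had a peak in all 4 lists, and 3 of the 9 did. The 20 peaks formed 7 regions when windows overlapping by at least 1 bp were joined. Regions at Nqo1, Aox1 and Ephx1 were in all 4 lists, regions at Cbr3 and Esd were in 3 lists each, and a region at Ugdh and a further one at Esd were in the WT list without leucine alone. Among the 14390 regions of the whole series, 256 (1.78%) were in all 4 lists. Ranks below are by the authors' peak score within a list, where rank 1 is the highest score and tied peaks share their mean rank. Lists differ in length, so a rank is given with the length of its list and does not measure a change in binding between lists.

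List lengths in complete medium were 2336 peaks for WT and 3141 for GCN2 KO, and in medium without leucine 5980 and 4600. Their read depth is unknown, and longer lists can come from deeper libraries. The lists without leucine were called against inputs from complete medium, so their peaks had no input of the same medium. No difference below has a replicate check, so none has a p-value, and a gene missing from a list had no peak that both passed the authors' threshold and had that gene's TSS as its nearest. The lists do not measure whether Eif2ak4 was disrupted, nor do they hold expression values against which the fibroblast label could be checked.

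Aox1 is the member whose peak windows reach into the RefSeq promoter table used here (250 bases before to 50 after each TSS, build GRCm38.p6, the same assembly as mm10). The table had promoters for 8 of the 9 genes, and Aldh3a1 was the gene without one. The stretch printed first is the part of the Aox1 promoter covered by the peak window of every list, and the capitals mark its match to TGANTCA, the element of the AP-1 family. The second stretch is shown for contrast, from the Ugdh promoter, which no peak window reached, and its capitals mark matches to TGACNNNGC, the core of the antioxidant response element.
Aox1, plus strand, chr1:58029719-58029880: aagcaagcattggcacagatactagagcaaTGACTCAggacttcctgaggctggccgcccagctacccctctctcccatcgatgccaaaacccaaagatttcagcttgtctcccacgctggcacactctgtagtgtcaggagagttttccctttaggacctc
Ugdh, minus strand, chr5:65435908-65435994: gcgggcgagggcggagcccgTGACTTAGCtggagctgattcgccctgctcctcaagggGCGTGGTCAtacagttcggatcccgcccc
Both strands were searched, and the TGANTCA pattern reads the same on either. The match in the Aox1 promoter lay at chr1:58029749-58029755, and its middle base was 13 bp from the peak centre in WT cells in complete medium, 0 bp in WT cells without leucine and 22 bp in both GCN2 KO lists. The Ugdh promoter held TGACTTAGC on the strand printed and a further match, read on the opposite strand, at the second run of capitals. Of all 32851 promoter windows, 7.81% held TGANTCA, 12.4% held TGACNNNGC and 0.986% held at least 2 matches to TGACNNNGC. The Aox1 promoter window held no match to TGACNNNGC, and that of Ugdh held none to TGANTCA. Neither pattern was found in the promoter windows of Nqo1, Ephx1, Cbr1, Cbr3, Ptgr1 or Esd. The promoter window of Aox1 covers 162 to 197 bp of its peak windows, so the search read part of each of them. The peak windows of Nqo1, Cbr3, Esd, Ephx1 and Ugdh lie outside these promoter windows, and their sequence was not analysed here.

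Nqo1, the quinone reductase gene, carried 1 peak per list, annotated to its promoter on chromosome 8. The window in WT cells in complete medium was chr8:107403525-107403825, and the centres lay at -470, -429, -446 and -460 bp relative to the TSS in WT complete, WT without leucine, GCN2 KO complete and GCN2 KO without leucine. These centres spanned 41 bp, so the windows of all lists overlapped. In WT cells in complete medium the Nqo1 peak ranked 2222.5 of 2336, in the lowest part of its list. It ranked 365 of 5980 in WT cells without leucine. In the GCN2 KO lists it ranked 462.5 of 3141 with leucine and 684 of 4600 when leucine was left out. Expressed as a share of the list, where 0% is the highest score, Nqo1 thus stood at 95.1% in WT complete medium. Its score there was 21, and the scores of that list had a minimum of 13 and a median of 38. In the other lists Nqo1 stood between 6.10% and 14.9%.

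Aox1 encodes aldehyde oxidase, a molybdenum enzyme that oxidises aldehydes and nitrogen heterocycles. Its peak was at the promoter on chromosome 1 in every list, with centres at -204 bp in WT complete medium, -217 bp in WT without leucine and -239 bp in both GCN2 KO lists. The 2 GCN2 KO windows were identical, at chr1:58029580-58029880. The Aox1 peak ranked 117.5 of 2336 in WT complete medium and 169 of 5980 in WT without leucine, the highest of the 9 genes in both WT lists. In GCN2 KO cells it ranked 630.5 of 3141 in complete medium, below Esd and Nqo1. Without leucine it ranked 427.5 of 4600, below Ephx1. Its position stayed within the upper 20.1% of each list.

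Ephx1 encodes microsomal epoxide hydrolase, which opens reactive epoxides to diols. Its peak lay inside the gene, in intron 1 of 8, with centres between 7571 and 7634 bp downstream of the TSS of the annotated transcript. The window in WT complete medium was chr1:181009729-181010029. Ephx1 ranked 322.5 of 2336 in WT complete medium, 228 of 5980 in WT without leucine and 294.5 of 4600 in GCN2 KO without leucine. With leucine present, the GCN2 KO list had it at rank 2504.5 of 3141, at 79.7% of the list, whereas it stood between 3.81% and 13.8% in the other 3. Nqo1 and Ephx1 were therefore each low in a different complete-medium list, Nqo1 in WT and Ephx1 in GCN2 KO.

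**Figure D1:**
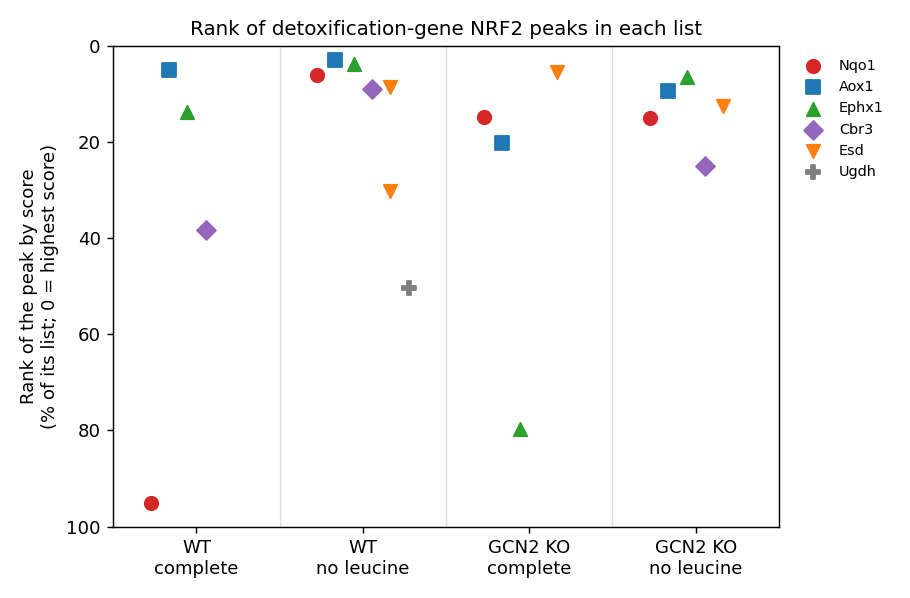
Rank of each peak by the authors' score, as a percentage of its list (vertical axis, 0 at the top is the highest score), in the 4 NRF2 lists (horizontal axis), with 1 symbol per peak and gene. Nqo1 sits at 95.1% in WT complete medium and Ephx1 at 79.7% in GCN2 KO complete medium, while Aox1 stays within the upper 20.1% of every list.

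Cbr3 and Cbr1 encode carbonyl reductases that use NADPH, and both genes lie on chromosome 16, separated by 72870 bp. Cbr3 had a promoter peak at -687 bp in WT complete medium (chr16:93682382-93682682), at -762 bp in WT without leucine and at -735 bp in GCN2 KO without leucine. It ranked 895.5 of 2336, 536 of 5980 and 1152 of 4600 in these lists. No peak was assigned to Cbr3 in GCN2 KO cells in complete medium, where the nearest peak of any assignment was 369.1 kb from the gene. Cbr1 had no peak in any list, and the Cbr3 site, 72.0 kb away, was the nearest peak to it in the 3 lists that held that site.

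Esd encodes esterase D, which hydrolyses S-formylglutathione in the removal of formaldehyde. Its recurrent peak lay in intron 1 of 8 on chromosome 14, at 1235 bp from the TSS in WT without leucine (chr14:74733382-74733682), 1269 bp in GCN2 KO complete medium and 1239 bp in GCN2 KO without leucine. The ranks were 511.5 of 5980, 171.5 of 3141 and 578.5 of 4600, and in GCN2 KO complete medium Esd was the highest of the 9 genes. In WT complete medium no peak was assigned to Esd, and the nearest peak of any assignment was 893.0 kb away. Cbr3 and Esd thus each lacked a peak in 1 complete-medium list, Cbr3 in GCN2 KO and Esd in WT.

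The remaining windows were distal and in the WT list without leucine. Esd had a second, intergenic peak there, 21240 bp downstream of the TSS (chr14:74753387-74753687), at rank 1800 of 5980. Ugdh, whose enzyme makes the UDP-glucuronic acid used to conjugate toxic compounds, had 1 peak at -18794 bp (chr5:65454486-65454786), at rank 3013 of 5980. That window lay in intron 3 of 4 of another transcript, so its link to Ugdh rests on the nearest-TSS rule. Both windows were annotated to SINE repeats of the B4 family. SINE repeats of any family covered 8.66% of the peaks of that list. No window of the other 5 regions was annotated to a repeat. Their ranks are coarse, since 553 peaks of the list shared the score of the Esd window and 913 that of the Ugdh window.

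Ptgr1, whose reductase acts on reactive alkenals and on leukotriene B4, and Aldh3a1, an aldehyde dehydrogenase best known from the cornea, had no assigned peak in any list. The nearest peak to Ptgr1 was 49.8 kb from the gene, in GCN2 KO without leucine, and was assigned to AI314180. In the other lists the nearest lay between 145.7 and 1008.6 kb away. The nearest peak to Aldh3a1 was 25.3 kb away, in WT without leucine, and was assigned to Aldh3a2. In the other lists the distance was 143.1 to 436.1 kb.

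**Figure D2:**
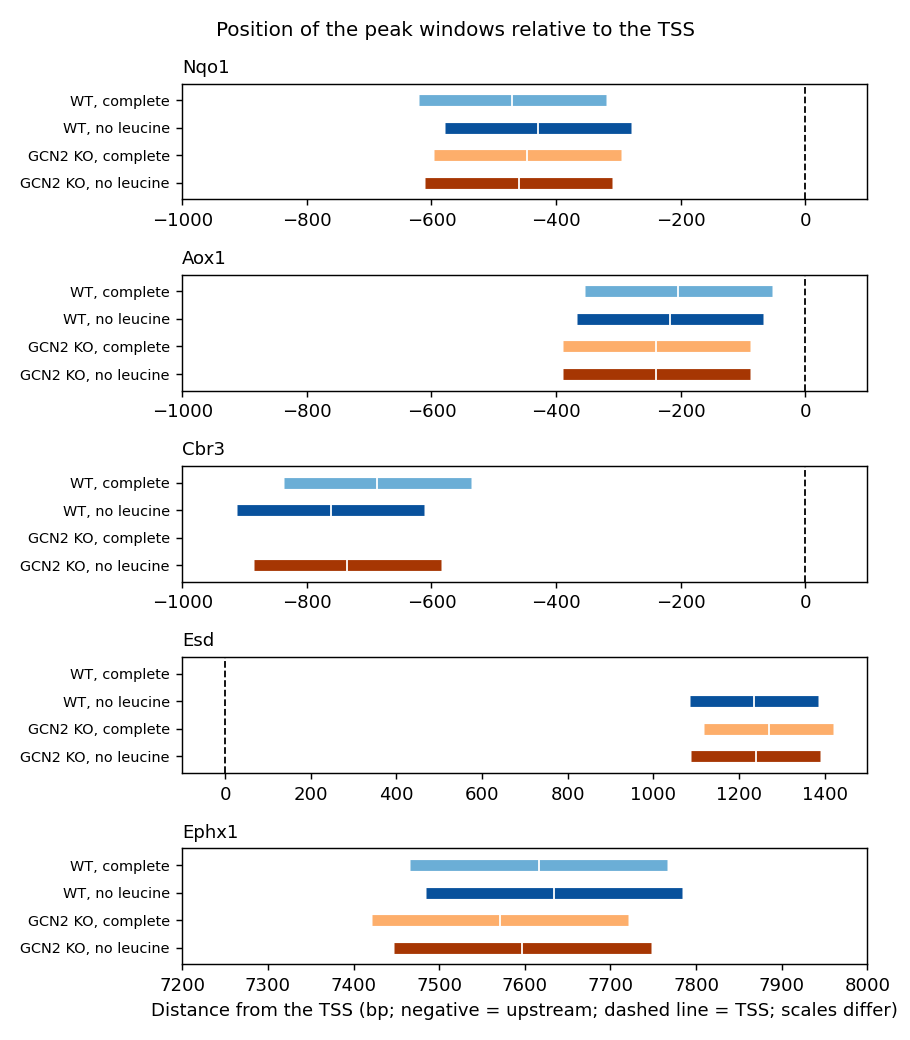
Peak windows of 300 bp (bars, centre marked in white) of the 5 regions found in 3 or 4 lists, placed by distance from the TSS in bp (horizontal axis, dashed line at the TSS, scale differing between panels), with 1 row per list. The Nqo1, Aox1 and Cbr3 windows lie upstream of the TSS, those of Esd and Ephx1 in intron 1, and an empty row is a list without the peak.

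At any distance, 4 of the 9 genes had a peak in WT complete medium, 6 in WT without leucine, 4 in GCN2 KO complete medium and 5 in GCN2 KO without leucine, where 7.92%, 17.3%, 9.89% and 13.5% of all protein-coding genes had one. Within 10 kb of the TSS the members numbered 4, 5, 4 and 5, and the shares of all protein-coding genes were 2.28%, 6.17%, 3.03% and 4.03%. Nqo1, Aox1 and Ephx1 had such a peak in all 4 lists, as did 0.370% of protein-coding genes. Of the 20 member peaks, 11 were annotated to a promoter, from the 3 regions at Nqo1, Aox1 and Cbr3, and promoter windows made between 1.54% and 2.70% of the peaks of a list. By score, 17 of the 20 stood in the upper 50% of their list and 14 in the upper 25%. The 3 that did not reach the upper 50% were Nqo1 in WT complete medium, Ephx1 in GCN2 KO complete medium and Ugdh. The 20 peaks come from 7 regions, and recurrent regions in general ranked high. The 256 regions in all 4 lists had median ranks of 7.32% and 2.68% in WT with and without leucine. In GCN2 KO these medians were 5.22% and 3.77%. Among the Nqo1, Aox1 and Ephx1 peaks, only Aox1 in WT complete medium, at 5.03%, ranked above the median. The member shares describe genes that were listed with earlier results of these data known and are not a test.

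Other enzymes of the same chemistry were counted from a list of 48 genes, 47 of which matched the RefSeq gene table. Within 10 kb, 1, 5, 3 and 2 of these 47 had a peak in WT complete, WT without leucine, GCN2 KO complete and GCN2 KO without leucine. These shares of 2.13%, 10.6%, 6.38% and 4.26% stand beside the 2.28%, 6.17%, 3.03% and 4.03% of protein-coding genes at large. Aldh2, the mitochondrial aldehyde dehydrogenase gene, was the 1 related gene with a peak in all 4 lists, in intron 1 of 12 and 9594 to 9669 bp from the TSS. It ranked 64 of 2336, 156 of 5980, 157 of 3141 and 427.5 of 4600, above Aox1 in 3 lists and tied with it in GCN2 KO without leucine. Aldh3b1 had 3 intronic windows in WT without leucine and 1 in GCN2 KO complete medium, and the lowest-ranked of the 3 and the GCN2 KO window overlapped at their edges. Glo1, which encodes the glyoxalase that removes methylglyoxal, had peaks in 3 lists that shared no window. Ugt1a1 and Ptgr2 each had a peak in both lists without leucine, again in separate windows. Zadh2 had distal peaks in both GCN2 KO lists, and Cryz 1 peak in WT without leucine.

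**Figure D3:**
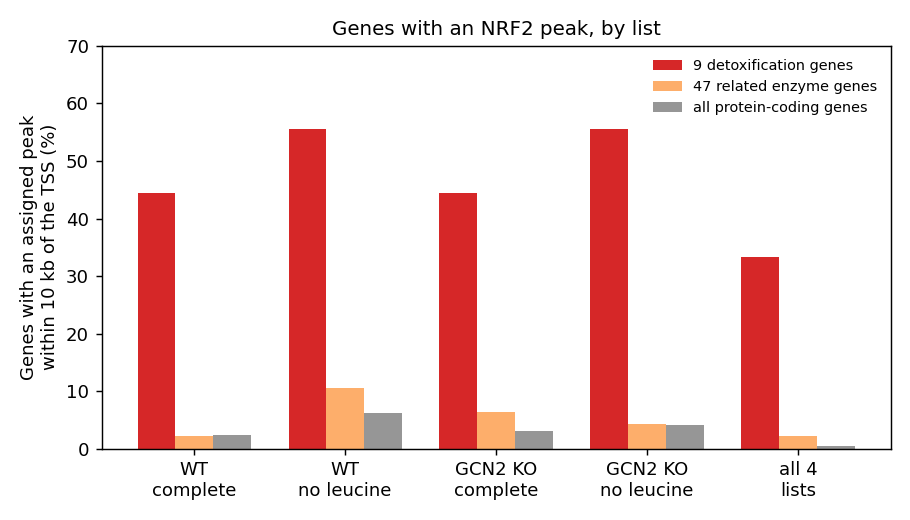
Percentage of genes with an assigned NRF2 peak within 10 kb of the TSS (vertical axis) in each list and in all 4 lists (horizontal axis), for the 9 detoxification genes, 47 related enzyme genes and 21896 protein-coding genes. The 9 genes reach 44.4% to 55.6% in single lists, against 2.28% to 6.17% of protein-coding genes.

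Leucine withdrawal in WT cells was examined to ask which member sites had a peak in cells that have GCN2 and are short of an amino acid. Nqo1, Aox1, Ephx1 and Cbr3 had a peak at the same site in both media, where 4.11% of protein-coding genes had a peak at any distance in both, and Esd and Ugdh had peaks without leucine alone. All 4 member peaks of the complete-medium list overlapped a peak of the list without leucine, as did 22.9% of all its peaks. In the other direction 4 of 7 member peaks overlapped, as did 8.96% of all peaks. When each list was limited to its upper 50% by score, all 3 member peaks of complete medium overlapped, against 37.8% of all peaks. Of the 6 member peaks without leucine in that part, 3 overlapped, against 14.7% of all peaks. Across protein-coding genes 13.2% had a peak at any distance without leucine alone and 3.81% in complete medium alone. With both lists at 2336 peaks, Esd was still in the list without leucine alone, whereas Ugdh dropped out. The shares of all genes and peaks found without leucine alone were not counted at that length.

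In GCN2 KO cells the same change of medium left Nqo1, Aox1, Ephx1 and Esd with a peak in both lists, as 4.23% of protein-coding genes had, and Cbr3 had one without leucine alone. All 4 member peaks of complete medium and 4 of the 5 without leucine overlapped, against 13.7% and 9.33% of all peaks. Limited to the upper 50% of each list by score, 3 of 3 and 3 of 5 overlapped, against 21.6% and 14.7% of all peaks. Of protein-coding genes, 9.29% had a peak without leucine alone and 5.66% in complete medium alone. The order of the members by score differed between the media, with Esd, Nqo1, Aox1 and Ephx1 from high to low in complete medium and Ephx1, Aox1, Esd, Nqo1 and Cbr3 without leucine.

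In complete medium GCN2 KO cells were set against WT cells. Nqo1, Aox1 and Ephx1 had a peak in both genotypes, against 2.73% of protein-coding genes, Cbr3 in WT alone and Esd in GCN2 KO alone. Thus 3 of 4 member peaks overlapped in each direction, against 15.6% of all WT peaks and 11.6% of all GCN2 KO peaks. A peak at any distance in WT alone was found for 5.20% of protein-coding genes and in GCN2 KO alone for 7.17%. In the upper 50% of both lists the overlap was 1 of 3 member peaks in each, at Aox1, against 26.0% of all WT peaks and 19.4% of all GCN2 KO peaks at that threshold, because the Nqo1 peak in WT and the Ephx1 peak in GCN2 KO lay in the lower part of their lists.

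The genotypes were set against each other without leucine as well. Nqo1, Aox1, Ephx1, Cbr3 and the intronic Esd site had a peak in WT and GCN2 KO cells, against 6.13% of protein-coding genes, so all 5 member peaks of the GCN2 KO list overlapped a WT peak, as did 10.4% of all its peaks. In the WT list 5 of 7 overlapped, against 7.96% of all its peaks, and the Ugdh window and the distal Esd window were the exceptions. Within the upper 50% of each list by score, 5 of 6 WT member peaks overlapped, against 13.8% of all WT peaks. All 5 GCN2 KO member peaks overlapped at that threshold, against 17.9% of all GCN2 KO peaks. Of protein-coding genes, 11.2% had a peak in WT alone and 7.39% in GCN2 KO alone.

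The rank of a recurrent site varied more for Nqo1 and Ephx1 than for most of the 256 regions found in all 4 lists. The span between the highest and lowest rank, each as a percentage of its list, was 89.0 percentage points for Nqo1, 75.9 for Ephx1 and 17.2 for Aox1, where the median of the 256 regions was 9.44. A span at least as large as that of Nqo1 was seen in 5 of the 256 regions, itself included, and for Ephx1 in 12. In WT complete medium 2 of the 256 regions ranked lower than Nqo1. The lists differ in length and have no replicate, so a span does not measure a change in binding.

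**Figure D4:**
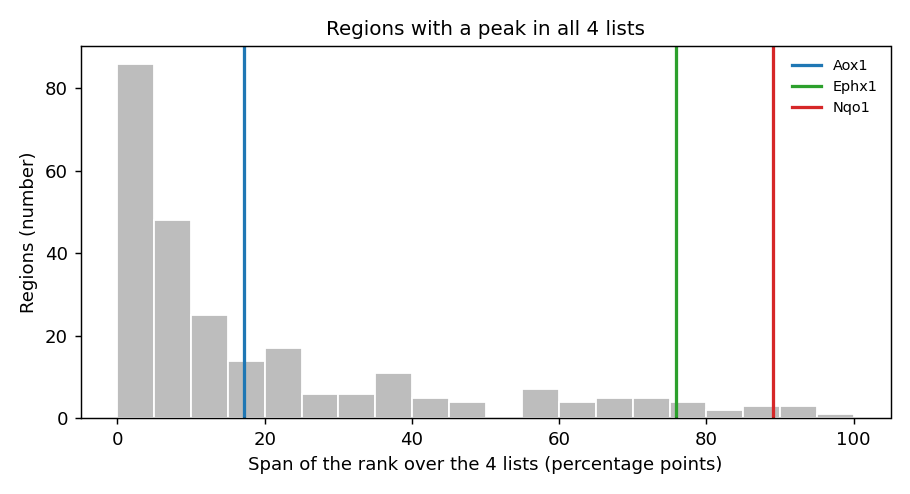
Number of regions (vertical axis) by the span of their rank over the 4 lists in percentage points (horizontal axis), for the 256 regions with a peak in every list. Coloured lines mark Aox1 at 17.2, Ephx1 at 75.9 and Nqo1 at 89.0, and the median is 9.44.

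The regions whose ranks over the 4 lists were most like those of the members were sought among the other 95 regions in all lists within 10 kb of a TSS, by the mean absolute difference in rank percentage. For Nqo1 they were those assigned to 5430425K12Rik (6.74 points), Numa1 (8.64) and Slc22a12 (9.22), each at 82.8% or beyond, toward the low scores, in WT complete medium and within the upper 15.5% of the other lists. For Aox1 they were Ptges3 (2.58 points), Itpripl2 (2.95) and Mir760 (3.71). The closest to Ephx1 were Upf3a (3.53 points), Gapdh (9.20) and Mmp19 (14.1). In GCN2 KO complete medium, where Ephx1 stood at 79.7%, Upf3a stood at 72.7% and Gapdh at 65.5%. Mmp19 stood at 27.6% there and did not share the low rank.

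Base composition differed between the member sites. The median GC fraction of the lists was 0.512 to 0.522. It was 0.492 to 0.518 for the Nqo1 windows, 0.485 to 0.518 for Aox1, 0.515 to 0.518 for Cbr3 and 0.528 to 0.532 for Ephx1. The intronic Esd site had 0.455 to 0.458, the lowest of the 7 regions, and the distal Esd and Ugdh windows had 0.502 and 0.492. The CpG fraction had a median of 0.0133 in each list. Windows above this median were those of Nqo1 at 0.0333 to 0.0367, Cbr3 at 0.0200 to 0.0300, Ugdh at 0.0200 and Aox1 at 0.0167. Below it were the intronic Esd site at 0.00333 in the 3 lists that held it, Ephx1 at 0.00333 to 0.0100 and the distal Esd window at 0.0100.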

How the data were processed

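Peak lists of 4 NRF2 libraries were used, and the 2 input libraries of the series, both from complete medium, were not analysed here. Reads were single and 50 bp long, per the labels' protocols. BWA 0.7.12, MACS2 2.1.0, HOMER 4.7 and the mm10 build are named in the submitters' processing notes, without settings. Each library was called against the complete-medium input of its genotype, in windows of 300 bp, per the file headers. The deposited peak score is a whole number of at least 13 of unstated scale, and it served to rank peaks within a list. GC and CpG content were deposited as a fraction of the window, and the signed distance to the TSS comes from the authors' annotation.

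Members were matched by symbol, and gene identifiers picked the same 20 peaks. The background was 21896 protein-coding genes of the RefSeq table for GRCm38.p6. Peaks were joined or called shared at an overlap of at least 1 bp, with code tested on simulated data (Python 3.11.15, pandas 2.3.3). All members were named. Related genes were named with a peak within 10 kb in any list or at any distance in at least 2 lists. The 3 regions most like each member in all 4 lists were named too. The members and lists were chosen with earlier results of these data known. Alternatives changed the score threshold, list length, repeats, TSS distance, assignment and overlap. With 1 library per condition no test was made, and read depth is unknown.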

Additional observations from a re-analysis of the deposited data

How the results depend on the processing

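Of 84 values recomputed for 13 counts, 74 were within 1.5 times the reported count, and 51 were identical to it. With each list cut to its 2336 highest-scoring peaks, Ephx1 dropped out of the GCN2 KO list in complete medium. Member regions in all 4 lists then fell from 3 to 2. Shared member sites fell from 3 to 2 between the genotypes in complete medium and from 4 to 3 between the media in GCN2 KO. Falls of this size are within the limit of 1.5 times. Shares of all regions and of all peaks were not counted at that length, so these falls have no comparison. Within 1 kb of the TSS, which drops the intronic sites of Ephx1 and Esd and the distal windows, members with a peak numbered 3 in WT without leucine, 2 in GCN2 KO complete medium and 3 in GCN2 KO without leucine, with 3, 2 and 3 peaks. Under that limit 2 member sites were shared between the media in GCN2 KO and 3 between the genotypes without leucine. Shares of all protein-coding genes and of all peaks were not counted at 1 kb, so these counts have no comparison. In the higher-scoring 50% of each list, 1 member site was shared between the genotypes in complete medium and 1 member region, Aox1, was in all 4 lists. The share of all regions in all 4 lists was not counted at that threshold. No paired analysis was possible because each condition has 1 library and no result comes from a test, and for the same reason no replicate could be left out. Read depth is unknown, so the part of depth in a missing peak was not tested.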
